A study of Mus musculus with 12 samples.

Results

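The genes described here encode the eukaryotic translation initiation factors, the proteins that bring ribosomes to mRNA. They were chosen by name, with earlier results of these data already known. Every gene was taken whose platform symbol begins with Eif and a digit from 1 to 6, apart from the eIF2 kinases named Eif2ak, and each was represented by its probe set with the highest mean over the 12 arrays. The rule gave 43 genes of 18193, drawn from 120 probe sets, and it used no comparison between time points. Probe sets that carry several symbols were left out, and Eif1, Eif2s1, Eif3g, Eif3j1, Eif3j2, Eif4g1 and Eif4ebp3 were not analysed here.

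Initiation begins when eIF2 bound to GTP delivers the initiator methionyl tRNA to the small ribosomal subunit, which also carries eIF1, eIF1A, eIF3 and eIF5. The eIF4F complex, made of the cap-binding protein eIF4E, the helicase eIF4A and the scaffold eIF4G, then recruits this subunit to the capped end of an mRNA, while the 4E-binding proteins hold eIF4E back until mTORC1 phosphorylates them. Once the start codon is found, eIF2 leaves with GDP and is recharged by eIF2B, and eIF5B joins the large subunit. The hepatocyte, which makes most plasma proteins, depends on a high rate of translation.

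Concanavalin A (ConA) is a plant lectin that activates T cells and causes fulminant hepatitis in mice. Male Balb/c mice aged 8 to 10 weeks received ConA at 20 mg/kg through the tail vein. Whole liver was taken 1 h, 3 h or 6 h later, with 3 replicate arrays at each time beside 3 control arrays at 0 h. The sample titles number the replicates and do not name the mice. The control mice are labelled as untreated, whereas the methods describe an injection of PBS. All controls were taken at 0 h, so that ConA, the injection and the time of day cannot be told apart.

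The deposited values were linear signals, and the median signal of an array lay between 13.7 and 20.4. The 3 arrays at 3 h were the dimmest (13.7 to 14.8), and 17.4 to 23.1% of the probe sets of an array lay at or under the floor of 3.04. The median change over all genes was 0.08 at 1 h, -0.21 at 3 h and 0.02 at 6 h on the log2 scale as deposited, against -0.02, -0.05 and -0.03 after quantile normalization, which gives every array the same distribution. The counts over all members are therefore given as deposited and after quantile normalization. Values of single genes, subgroups and lists are as deposited unless another scaling is named. The signals of 41 of the 43 initiation factors were above the median of all genes, and the median of their residual standard deviations was 0.143 on the log2 scale, against 0.317 over all genes. The exceptions were Eif4a3, whose only usable probe set was at the floor on 11 of 12 arrays, and Eif5a2, with signals from 0.943 to 16.3. A brighter probe set does not mean more mRNA of its gene than of another.

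Most initiation factors stood above the controls at 6 h, none was called lower there, and few were called in either direction earlier. The median change of the 43 genes was 0.11 at 1 h, -0.16 at 3 h and 0.27 at 6 h on the log2 scale. In limma, with Benjamini-Hochberg adjusted p under 0.05 over all genes as the threshold, 1 gene was higher and 0 lower at 1 h, beside 1.50% and 0.148% of all genes. The 3 h arrays gave 2 higher genes and 4 lower ones (5.15% and 14.7% of all genes). The 6 h arrays gave 18 higher and 0 lower (15.4% and 12.7%). At an unadjusted p under 0.05 the limma counts were 3 higher and 0 lower for 1 h, 2 higher and 8 lower for 3 h, and 22 higher and 1 lower for 6 h. The share of all genes at this unadjusted threshold was not counted, so these counts cannot be set against it. After quantile normalization 1 gene was higher at 1 h (1.29% of all genes). The 3 h counts became 2 higher and 1 lower (7.96% and 9.06%), and those of 6 h became 18 higher and 1 lower (14.2% and 17.7%). The 18 higher genes at 6 h as deposited and the 18 after quantile normalization had 16 in common. These comparisons share the 3 control arrays.

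**Figure D1:**
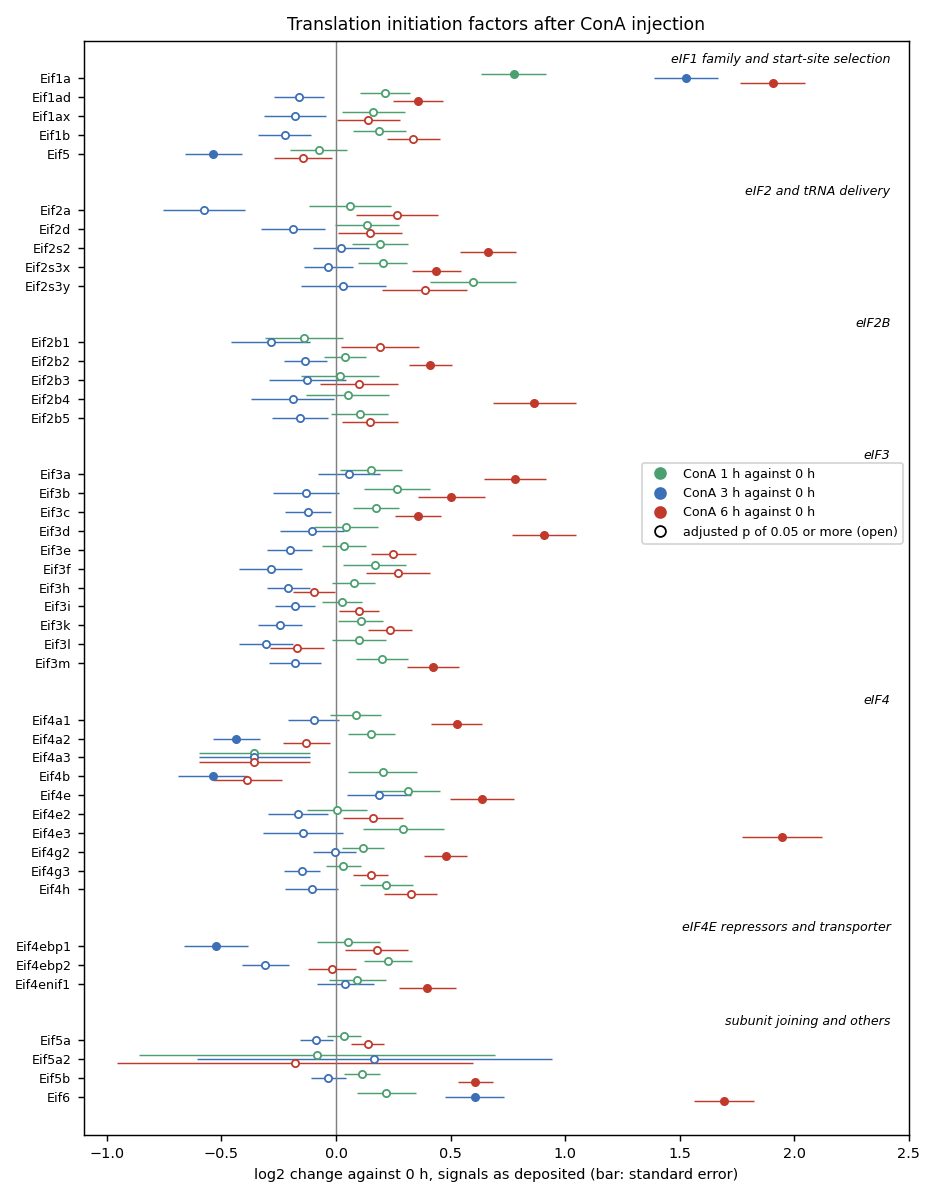
Log2 change of the 43 initiation factors at 1 h (green), 3 h (blue) and 6 h (red) after ConA against 0 h, by subgroup, as deposited. Bars are standard errors from limma over 3 arrays a group and filled points have an adjusted p under 0.05. At 6 h, 18 points are filled, all to the right of 0, and Eif1a, Eif4e3 and Eif6 lie farthest out.

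In a separate fit of the 9096 genes brighter than the median, 20 of the 41 members in it were higher at 6 h, beside 28.8% of those genes. The members were brighter than most of this set too, since the median member stood at the percentile 90.4 of all genes by mean signal, and they were not compared with genes of like brightness. In the full table, the 3 arrays at 6 h all lay above the 3 control arrays for 29 members (67.4%), beside 22.1% of all genes, and all lay below them for 2 members, beside 18.5%. The group with the highest mean was 6 h for 33 members (76.7%), against 36.4% of all genes. Over all 4 groups, 28 members passed limma's moderated F test (38.0% of all genes did) and 20 did so after quantile normalization (33.8%), with 19 in both. Fewer members passed it with every array set to the same median, as given in the last section. The F test gives neither a direction nor a time. The plot of all changes at 6 h sets the members beside all genes, and no member lay in the lower tail of the other genes beyond -0.39.

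**Figure D2:**
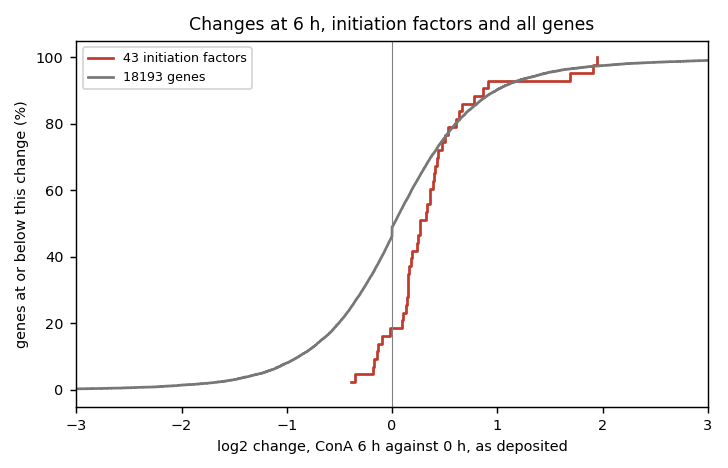
Share of genes (percent) at or below each log2 change at 6 h against 0 h as deposited, for the 43 initiation factors (red) and all 18193 genes (grey). The red curve starts at -0.39 and 35 of the 43 changes are above 0, while the median over all genes is 0.02.

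Eif1a was the only member called at 1 h, and it was called at every later time. It encodes eIF1A, which keeps the scanning ribosome open, and has an X-linked counterpart in Eif1ax. The Eif1a signal was 296, 233 and 290 on the control arrays, 521, 482 and 400 at 1 h, 789, 792 and 769 at 3 h, then 873, 1134 and 1061 at 6 h. No array after ConA overlapped the controls, and the 4 groups did not overlap each other. In limma the log2 change was 0.78 ± 0.14 at 1 h (standard error, n = 3 a group, adjusted p = 0.0262). It was 1.53 ± 0.14 for 3 h, with an adjusted p of 0.000119, and 1.90 ± 0.14 for 6 h, with an adjusted p of 2.03e-05. After quantile normalization the changes were 0.64, 1.66 and 1.85, with adjusted p of 0.0494, 3.49e-05 and 1.02e-05. The call at 1 h was lost without control replicate 1, 2 or 3 (adjusted p of 0.0522, 0.0717 and 0.0598), without replicate 1 or 2 at 1 h (0.089 and 0.101) and without replicate 3 at 3 h (0.0508). It was also lost with every array set to the same median (0.68, adjusted p = 0.0773), with a replicate block (0.0767), with only the control and 1 h arrays in the fit (0.166) and with the median of both Eif1a probe sets (0.0597). Both Eif1a probe sets were higher at 6 h. Eif1ax, by contrast, changed by 0.14 ± 0.14 at 6 h on the log2 scale, and its adjusted p was 0.522.

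Eif6 and Eif4e3 reached changes of the same order at 6 h by different courses. Eif6 encodes a factor that binds the large ribosomal subunit and keeps it from joining the small one too early. Its signal was 500, 507 and 529 in the controls, 734, 565 and 511 at 1 h, 783, 734 and 821 at 3 h, then 1561, 1805 and 1614 at 6 h. The arrays at 3 h and 6 h lay above all controls, those at 6 h above all others, and those at 1 h overlapped the controls. On the log2 scale Eif6 rose by 0.60 ± 0.13 at 3 h (limma, adjusted p = 0.0111). The other Eif6 probe set changed by -0.05 at 3 h (adjusted p = 0.995). With the median of both probe sets the call at 3 h was lost (0.28, adjusted p = 0.218). By 6 h the rise was 1.69 ± 0.13 (adjusted p = 2.4e-05), or 3.24-fold.

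Eif4e3, a paralogue of eIF4E that also binds the cap, stayed with the controls until 3 h. Its signal was 75.5, 94.9 and 59.3 in the controls, 96.2, 102 and 79.6 at 1 h, 70.8, 75.3 and 59.0 at 3 h, then 300, 299 and 271 at 6 h. Only the 6 h arrays stood apart, far above the other 9. They gave a rise of 1.95 ± 0.18 on the log2 scale (limma, adjusted p = 6.04e-05), or 3.85-fold, whereas the change by 3 h was -0.14 ± 0.18, with an adjusted p of 0.636. After quantile normalization the 6 h changes of Eif6 and Eif4e3 were 1.66 and 1.84. Both probe sets of Eif6 and both of Eif4e3 were higher at 6 h.

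Among the 10 eIF4 genes 4 were higher at 6 h and none was lower, beside 15.4% and 12.7% of all genes, and the median log2 change was 0.24. Eif4e encodes the cap-binding protein itself. Its signal was 432, 340 and 423 in the controls, 598, 481 and 415 at 1 h, 446, 466 and 442 at 3 h, then 613, 625 and 608 at 6 h. The 6 h arrays were all above the controls and above every other array, and the 3 h arrays lay just above the controls. The log2 change at 6 h was 0.64 ± 0.14 (limma, adjusted p = 0.00736). Of the 4 Eif4e probe sets 2 were higher at 6 h, beside 12.0% of all 45037 probe sets, and the others changed by 0.09 and 0.05.

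Eif4a1, the main helicase of eIF4F, had signals of 1691, 1523 and 1750 in the controls, 2009, 1671 and 1607 at 1 h, 1608, 1411 and 1620 at 3 h, then 2384, 2531 and 2236 at 6 h. The 6 h arrays again lay above all the others, while those at 1 h and 3 h overlapped the controls. The log2 change at 6 h was 0.53 ± 0.11 (limma, adjusted p = 0.00612), and all 3 Eif4a1 probe sets were higher. The helicase paralogue Eif4a2 did not follow it and is described with the genes that were lower at 3 h. Eif4g2, a scaffold relative of eIF4G that lacks the part binding eIF4E, changed by 0.48 ± 0.09 at 6 h (adjusted p = 0.00411). Of its 5 probe sets 2 were higher, and the median of the 5 gave -0.04 (adjusted p = 0.931). Eif4h, which stimulates the helicase, changed by 0.33 ± 0.12 (adjusted p = 0.0663) as deposited and was higher after quantile normalization (0.30, adjusted p = 0.0115). Eif4e2, Eif4g3 and Eif4a3 did not differ from 0 h by the test at any time, and Eif4g3 was higher at 6 h against 3 h as deposited.

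**Figure D3:**
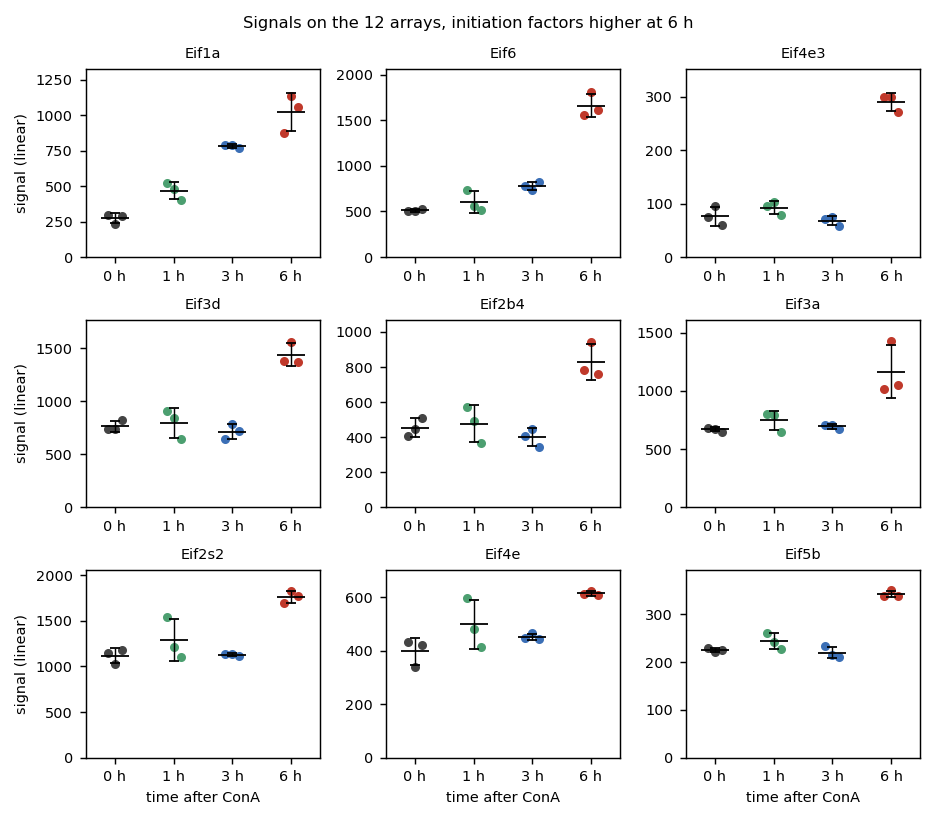
Signals of the 9 initiation factors that were higher at 6 h under all 4 scalings, on linear axes from 0, for 3 arrays each at 0, 1, 3 and 6 h. Points are arrays, horizontal lines means and bars standard deviations. The 6 h points lie above the control points in all 9 panels, and only Eif1a and Eif6 are already clear of the controls at 3 h by the test.

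The promoters of Eif4e, Eif4a1 and Eif3d are shown because these genes rose together at 6 h and these windows hold motifs that were searched. RefSeq gives 2 starts for Eif4e, and the window of the other one, chr3:138525941-138526240, held none of the motifs searched. Each runs from 250 bases before to 50 bases after the start of transcription in RefSeq (GRCm38.p6), and capitals mark motif matches. In Eif4e they are an E-box, the letters CACGTG, at 228 and at 64 bases before the start, and a GAS match, the letters TTCNNNGAA, at 139 bases before it. In Eif4a1 they are an E-box at 189 bases before the start, and in Eif3d an ETS match, CCGGAAG, on the opposite strand at 70 bases before it.
Eif4e, chr3:138527018-138527317, + strand: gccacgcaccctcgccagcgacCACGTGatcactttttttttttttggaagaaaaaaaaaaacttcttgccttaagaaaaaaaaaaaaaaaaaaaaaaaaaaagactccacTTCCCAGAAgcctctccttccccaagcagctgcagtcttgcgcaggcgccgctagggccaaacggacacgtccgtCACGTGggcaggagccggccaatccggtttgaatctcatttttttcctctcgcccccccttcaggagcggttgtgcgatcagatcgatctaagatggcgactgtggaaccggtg
Eif4a1, chr11:69672374-69672673, - strand: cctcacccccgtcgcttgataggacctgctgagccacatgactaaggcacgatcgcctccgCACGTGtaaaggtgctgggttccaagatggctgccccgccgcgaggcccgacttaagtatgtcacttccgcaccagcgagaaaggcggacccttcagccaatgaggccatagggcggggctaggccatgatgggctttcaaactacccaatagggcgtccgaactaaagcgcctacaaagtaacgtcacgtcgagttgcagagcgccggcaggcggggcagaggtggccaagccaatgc
Eif3d, chr15:77970775-77971074, - strand: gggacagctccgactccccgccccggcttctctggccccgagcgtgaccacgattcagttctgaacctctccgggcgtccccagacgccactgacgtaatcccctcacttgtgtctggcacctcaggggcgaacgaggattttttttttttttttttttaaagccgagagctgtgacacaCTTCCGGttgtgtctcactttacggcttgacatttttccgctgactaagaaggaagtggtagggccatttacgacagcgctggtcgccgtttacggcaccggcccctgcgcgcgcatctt

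Promoters were given for 34 of the 43 genes, and those of Eif1a, Eif2b3, Eif3e, Eif3h, Eif3i, Eif4e3, Eif4ebp1, Eif4g2 and Eif6 were not. Both strands were searched, and the motifs do not contain one another. The E-box CACGTG, which Myc and related factors bind, was found in at least 1 window of 9 of the 34 genes (26.5%), against 8.09% of 27025 genes with windows of the same length. By window, 11 of 46 held it, against 7.15% of 32851. The ETS letters CCGGAAG were found in 14 genes (41.2%), against 9.93%. The GAS letters, which STAT factors bind, were in 2 (5.88%, against 9.55%), and neither the CRE TGACGTCA nor the ATF4 element TGATGNAAT was in any (2.03% and 1.08% of all genes). Of the 14 genes with a promoter that were higher at 6 h, 3 held the E-box and 7 the ETS letters, and of the other 20, 6 and 7 did. The members are mostly bright genes, and their motif shares were not compared with those of genes of like brightness. A match describes the letters in this window and does not show binding.

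The eIF3 complex, the large scaffold on the small subunit, was represented by 11 genes, of which 5 were higher at 6 h and none was lower, beside 15.4% and 12.7% of all genes. The median log2 change was 0.27 (0.24 after quantile normalization). Eif3d, whose human counterpart can bind the cap of particular mRNAs, gave the largest change of the 11. Its signal was 735, 735 and 825 in the controls, 906, 841 and 639 at 1 h, 643, 781 and 715 at 3 h, then 1376, 1561 and 1371 at 6 h. The arrays at 1 h and 3 h overlapped the controls, and those at 6 h stood far above all 9 others. The log2 change at 6 h was 0.91 ± 0.14 (limma, adjusted p = 0.00113), and 0.87 after quantile normalization (adjusted p = 0.000326). The other Eif3d probe set changed by 0.21 and was not called.

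Eif3a, the largest eIF3 subunit, was next with 0.78 ± 0.14 at 6 h (adjusted p = 0.00224), and its 6 h arrays, at 1014, 1428 and 1052, were above the controls at 684, 672 and 651. The core subunits Eif3b and Eif3c and the subunit Eif3m changed by 0.50, 0.36 and 0.42 (adjusted p of 0.028, 0.0242 and 0.0194). Eif3e was higher after quantile normalization (0.21, adjusted p = 0.0199). Eif3l ran the other way, with a log2 change of -0.17 as deposited (adjusted p = 0.352) and -0.23 after quantile normalization (adjusted p = 0.018). Eif3f, Eif3h, Eif3i and Eif3k, with changes from -0.10 to 0.27, did not pass the test at 6 h. The difference between the subunits in their change was not tested.
The calls of the smaller rises were lost on leaving out single arrays. For Eif3b these were control replicates 1, 2 and 3 (adjusted p of 0.0807, 0.0646 and 0.0568) and replicates 1 and 3 at 6 h (0.0602 and 0.0932). For Eif3c they were control replicate 1 (0.0837) and replicates 2 and 3 of the 6 h group (0.0799 and 0.0657). For Eif3m they were control replicates 2 and 3 (0.0573 and 0.0633) and replicate 2 of the 6 h group (0.0659).

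Of the 5 genes for eIF2 and other tRNA-delivering factors 2 were higher at 6 h and none was lower (15.4% and 12.7% of all genes). Eif2s2 encodes the beta subunit of eIF2. Its signal was 1147, 1024 and 1178 in the controls, 1547, 1212 and 1102 at 1 h, 1136, 1141 and 1114 at 3 h, then 1694, 1830 and 1773 at 6 h. The 3 h arrays lay within the control range and the 6 h arrays above all others. The log2 change at 6 h was 0.66 ± 0.12 (limma, adjusted p = 0.00295), and 4 of the 6 Eif2s2 probe sets were higher.

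Eif2s3x, the X-linked gene for the gamma subunit, had signals of 713, 863 and 752 in the controls, 984, 874 and 823 at 1 h, 740, 829 and 704 at 3 h, then 1002, 1085 and 1059 at 6 h. Its 6 h arrays were above the controls by a smaller margin than those of Eif2s2, with a log2 change of 0.44 ± 0.11 (limma, adjusted p = 0.0132, or 0.05 without control replicate 1). The Y-linked copy Eif2s3y changed by 0.39 ± 0.19 at 6 h (adjusted p = 0.17). Eif2a and Eif2d, which can deliver tRNA without eIF2, changed by 0.27 and 0.15 and did not pass. Among the 5 genes of eIF2B, the exchange factor for eIF2, Eif2b4 (delta subunit, 0.87 ± 0.18, adjusted p = 0.00603) and Eif2b2 (beta subunit, 0.41 ± 0.09, adjusted p = 0.00873) were higher at 6 h. The Eif2b4 signals were 782, 943 and 760 at 6 h, against 408, 445 and 511 at 0 h. The other 3 subunits changed by 0.10 to 0.19 and did not pass.

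Eif5b, the GTPase of subunit joining, rose with little spread between arrays. Its signals at 6 h were 339, 351 and 340, against 230, 221 and 225 at 0 h, a log2 change of 0.61 ± 0.08 (limma, adjusted p = 0.000397). Eif5a, known for its hypusine residue and its work in elongation, changed by 0.14 ± 0.07 (adjusted p = 0.215). The small rises of Eif1ad, a relative of eIF1A, and of Eif4enif1, which carries eIF4E into the nucleus, were 0.36 and 0.40 (adjusted p of 0.0356 and 0.0384). Both calls were lost after quantile normalization (adjusted p of 0.0815 and 0.0662) and on leaving out any 1 of several arrays. For Eif1ad these were control replicates 2 and 3 (0.0878 and 0.109) and replicates 1, 2 and 3 at 6 h (0.0825, 0.066 and 0.0952). For Eif4enif1 they were control replicates 1 and 3 (0.125 and 0.101), replicates 1, 2 and 3 at 3 h (0.0542, 0.0503 and 0.0512), and replicates 2 and 3 at 6 h (0.113 and 0.105).

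Under 2 further scalings the count of higher genes at 6 h was 9 when every array was set to the same median (12.4% of all genes) and 17 with the same trimmed mean (14.7%). Lower at 6 h were Eif4b with the same median (17.3% of all genes were), and Eif3l and Eif4b with the same trimmed mean, where the share of all genes is not given. The 9 genes higher under all 4 scalings were Eif1a, Eif2b4, Eif2s2, Eif3a, Eif3d, Eif4e, Eif4e3, Eif5b and Eif6. The share of all genes higher under all 4 scalings was not counted. Of the 9, Eif3d and Eif4e were not called with the median of all probe sets of a gene (0.56 and 0.09, limma, adjusted p of 0.469 and 0.825). For Eif3d this median includes a probe set that was at the floor on 6 of 12 arrays. The plot of both scalings shows that the rescaling moved the genes together: it raised nearly all changes at 3 h and lowered those at 6 h slightly.

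**Figure D4:**
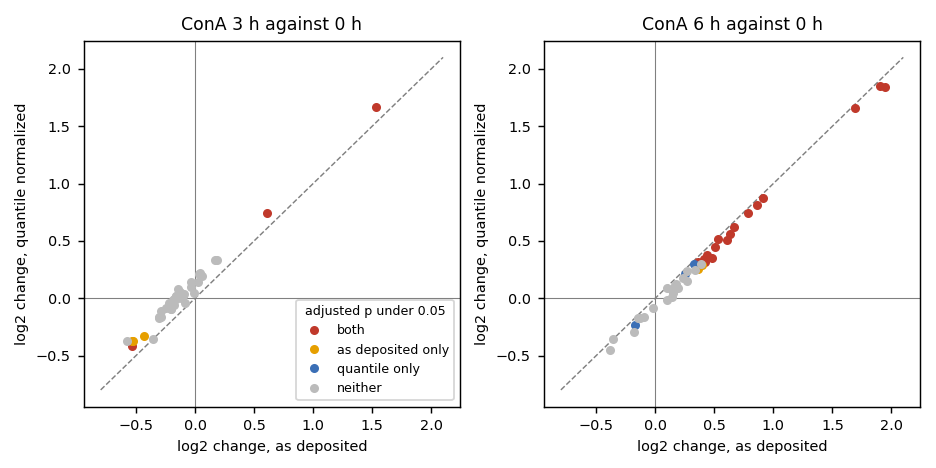
Log2 change of each of the 43 initiation factors as deposited (horizontal axis) and after quantile normalization (vertical axis), at 3 h (left) and 6 h (right) against 0 h. Colours give the scaling in which the adjusted p is under 0.05, and the dashed line is equality. At 3 h 3 genes were lower as deposited only and 1 in both, while at 6 h 16 were higher in both.

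The genes lower at 3 h as deposited were Eif5, Eif4b, Eif4ebp1 and Eif4a2. Eif5 encodes the protein that makes eIF2 hydrolyse GTP at the start codon. Its signal was 2461, 2288 and 1972 in the controls, 2390, 1925 and 2064 at 1 h, 1682, 1412 and 1535 at 3 h, then 1998, 2222 and 1855 at 6 h. The 3 h arrays were below all 9 others, and those at 6 h overlapped the controls. The log2 change at 3 h was -0.54 ± 0.13 (limma, adjusted p = 0.0163) as deposited and -0.42 (adjusted p = 0.0119) after quantile normalization, and 4 of 5 Eif5 probe sets were lower, beside 9.83% of all probe sets. Another Eif5 probe set was still lower at 6 h (-0.38, limma, adjusted p = 0.0316), where 8.37% of all probe sets were. It was also called lower after quantile normalization (-0.42), and the remaining Eif5 probe sets were not called at 6 h.

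Eif4b stimulates the helicase eIF4A. Its signal was 588, 778 and 615 in the controls, 696, 819 and 755 at 1 h, 499, 495 and 372 at 3 h, then 471, 547 and 489 at 6 h. The arrays at 3 h and 6 h lay below all controls. At 3 h the log2 change was -0.54 ± 0.15 (limma, adjusted p = 0.0336), by 6 h it was -0.39 ± 0.15 (adjusted p = 0.0878), and all 3 Eif4b probe sets were lower at 3 h. At 6 h it was called lower with every array set to the same median (-0.52, limma, adjusted p = 0.015) and with the same trimmed mean.

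Eif4ebp1, a 4E-binding protein, had signals of 685, 690 and 601 in the controls, 811, 563 and 695 at 1 h, 439, 439 and 497 at 3 h, then 678, 767 and 793 at 6 h. It was lower at 3 h, by -0.52 ± 0.14 on the log2 scale (limma, adjusted p = 0.0266). Of the 3 Eif4ebp1 probe sets this was the only one called, and the others changed by -0.37 and -0.08 (adjusted p of 0.102 and 0.943). Eif4a2 had signals of 2058, 2237 and 1779 in the controls, 2234, 2277 and 2212 at 1 h, 1407, 1616 and 1457 at 3 h, then 1740, 1993 and 1802 at 6 h. Its 3 h arrays were below all 9 others, with a log2 change of -0.44 ± 0.10 (limma, adjusted p = 0.0173).
After quantile normalization Eif4b, Eif4ebp1 and Eif4a2 no longer passed at 3 h, with changes of -0.38, -0.37 and -0.33 (adjusted p of 0.15, 0.0708 and 0.0687). The count of 4 lower genes became 1 on leaving out control replicate 1, 0 on leaving out control replicate 2, and 2 on leaving out replicate 3 at 3 h. With every array set to the same median none of the 4 was called lower (6.34% of all genes were), and the changes of Eif5, Eif4b, Eif4ebp1 and Eif4a2 were -0.29, -0.29, -0.28 and -0.19 (adjusted p of 0.14, 0.196, 0.254 and 0.255). Eif5 was called as deposited and after quantile normalization, and without control replicates 1 and 2 or replicate 2 at 3 h its adjusted p was 0.0593, 0.0525 and 0.0558.

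**Figure D5:**
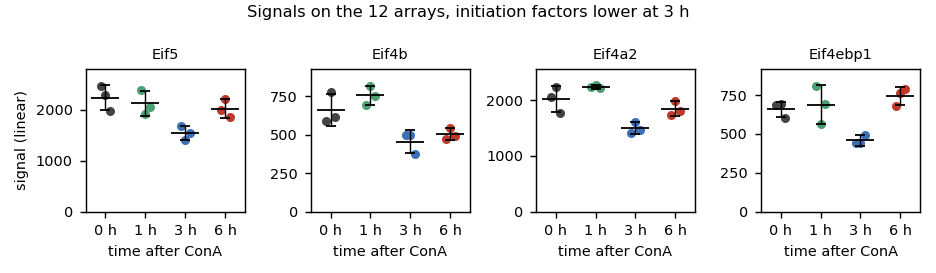
Signals of the 4 initiation factors lower at 3 h as deposited, on linear axes from 0, for 3 arrays each at 0, 1, 3 and 6 h. Points are arrays, horizontal lines means and bars standard deviations. The 3 h points lie below the control points in each panel, and of the probe sets shown only that of Eif4b stays below them at 6 h.

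Eif4ebp2, the 4E-binding protein kept in the description whatever its change, differed between its probe sets. The chosen probe set gave 734, 700 and 648 in the controls, 890, 754 and 794 at 1 h, 564, 579 and 537 at 3 h, then 709, 746 and 607 at 6 h. Its 3 h arrays were below the controls (log2 change -0.31 ± 0.10, limma, adjusted p = 0.067) and its 6 h arrays overlapped them (-0.02 ± 0.10, 95% interval from -0.25 to 0.22). Over all probe sets, of which 8.37% were lower at 6 h, 3 of the other 4 Eif4ebp2 probe sets were lower, with changes of -0.77, -1.08 and -0.87 (adjusted p of 0.00902, 0.000282 and 0.0136). At 3 h, where 9.83% of all probe sets were lower, the Eif4ebp2 probe sets also differed. Those changing by -0.89 and -0.64 were called lower (limma, adjusted p of 0.00779 and 0.00812). After quantile normalization only the former was still called (-0.71). The chosen probe set was not called at 3 h, nor were those changing by -0.21 and -0.24 (adjusted p of 0.588 and 0.943). No initiation factor had probe sets called in opposite directions at 1, 3 or 6 h.

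Between consecutive times more members were called lower than higher at 3 h and only higher ones at 6 h as deposited. At 3 h against 1 h, 1 was higher and 12 were lower (3.08% and 19.9% of all genes). For 6 h against 3 h the counts were 25 higher and 0 lower (18.8% and 3.83%). At an unadjusted p under 0.05, limma gave 36 higher and 0 lower at 6 h against 3 h, and the share of all genes was not counted. After quantile normalization, 2 were higher and 0 lower at 3 h against 1 h (5.52% and 5.41%). At an unadjusted p under 0.05 in limma they were 4 and 5, again without a share of all genes. At 6 h against 3 h, 16 were then higher and 0 lower (9.35% and 10.3%), and all 16 were among the 25. The 12 falls between 1 h and 3 h were 3 without replicate 1 at 1 h, 6 without replicate 2 at 1 h, and 6, 6 and 4 without replicate 1, 2 or 3 at 3 h. The falls between 1 h and 3 h were thus not called after quantile normalization, whereas 16 genes were called higher at 6 h against 3 h in both scalings. With every array set to the same median this count was 4 (6.25% of all genes), namely Eif2b4, Eif3d, Eif4e3 and Eif6, and with the same trimmed mean it was 12 (10.8%).

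Genes that act on initiation from outside the machinery also changed. The kinases that phosphorylate eIF2, the subunits of its phosphatase and the transcription factor Atf4, whose mRNA is translated when eIF2 is phosphorylated, formed a list of 8, of which 5 were higher and 0 lower at 6 h (15.4% and 12.7% of all genes), with a median log2 change of 0.97 against 0.02 over all genes. After quantile normalization, which kept the count of 5, Ppp1r15b was called lower. Eif2ak2, the kinase PKR that double-stranded RNA activates, changed by 2.33 ± 0.21 at 6 h (limma, adjusted p = 6.35e-05) and was already higher at 3 h (1.81). Atf4 changed by 1.31 ± 0.14 (adjusted p = 0.000158), Ppp1r15a, the inducible phosphatase subunit GADD34, by 1.11 ± 0.27 (adjusted p = 0.0127), Eif2ak3, the kinase PERK of the endoplasmic reticulum, by 0.83 ± 0.15 (adjusted p = 0.00317), and the adaptor Nck1 by 1.43 ± 0.11 (adjusted p = 2.4e-05). The amino acid sensing kinase Eif2ak4 and the heme-regulated kinase Eif2ak1 changed by 0.33 and -0.04 (adjusted p of 0.307 and 0.876).

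Of 16 partners of the cap and the poly(A) tail, 4E kinases and scanning helpers 6 were higher and 2 lower at 6 h (15.4% and 12.7% of all genes), with a median of 0.26. The ribosome recycling factor Abce1 and the helicase Ddx3x were higher (0.70 and 0.68), while the 4E kinase Mknk2 and the eIF4A inhibitor Pdcd4 were lower (-0.81 and -0.45). After quantile normalization 5 were higher and 3 lower. The mTORC1 list of 11 genes had 1 higher and 1 lower, with a median of 0.20, and so no larger a share called in either direction than all genes. They were Ddit4, an inhibitor of mTORC1 (1.92 ± 0.59, limma, adjusted p = 0.0376), and Tsc1, a subunit of another inhibitor of mTORC1 (-0.80 ± 0.20, adjusted p = 0.0145). Of 11 elongation and release factors 5 were higher and 2 lower, again beside 15.4% and 12.7% of all genes, with a median of 0.28. The release factors Gspt1 and Etf1 rose by 0.84 and 0.70, and Eef2k, the kinase that inactivates the elongation factor eEF2, fell by 0.86. After quantile normalization 5 elongation and release factors were higher and 3 lower (14.2% and 17.7% of all genes). The mTORC1 list then again had 1 higher and 1 lower, with a median of 0.06. The lists were described by counts and medians only, and the median of the initiation factors at 6 h, 0.27, was close to that of the elongation and release factors.

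Whole liver was measured, so that a change may come from fewer or more cells of a type or from less or more RNA in each, which cannot be told apart. Neutrophil markers were higher at each time after ConA, 5 of 6 at 1 h and 6 of 6 at 3 h and 6 h. Their summed signal was 65.1 to 114 at 0 h, 810 to 1169 at 1 h, 1453 to 2065 at 3 h and 1560 to 2407 at 6 h, and none was at the floor on every array of a group. Cd4 was at the floor on the arrays at 1 h and 3 h and the Kupffer cell marker Marco on the control arrays. The 6 hepatocyte markers were abundant, with sums of 46830 to 49240 at 6 h against 46860 to 50410 at 0 h, and 0 of 6 were called at 6 h as deposited in limma (2 were lower after quantile normalization). T cell markers had sums of 89.1 to 140 at 6 h against 58.2 to 80.5 at 0 h, with 1 of 6 higher, and B cell markers 82.7 to 100.1 against 35.6 to 71.5, with 0 of 3 called. Kupffer cell markers, summed to 609 to 892 against 994 to 1352, had 1 of 5 higher and 2 lower. Endothelial markers, at 729 to 821 against 776 to 1668, had 1 of 5 higher and 3 lower, and stellate cell markers, at 1114 to 1277 against 1676 to 2080, had 3 of 4 lower. The part of these cell types in the changes of the initiation factors was not tested.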

How the data were processed

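Liver RNA of 12 samples was measured on 12 Affymetrix arrays. The deposited table held linear signal intensities of 45101 probe sets, and the submitters' notes name MAS5 5.0, whereas the methods of the study describe RMA. The intensities as deposited by the authors differ in distribution between arrays and were not scaled again. Signals below 3.044, the 20th percentile of all values, were raised to it before log2 was taken. Of 45037 probe sets other than controls, 34945 carried 1 symbol, 932 several and 9160 none. For 34741 probe sets the current symbol was found through the Entrez ID, whether or not it differed from that of the platform, and no member's symbol changed. Each of 18193 genes was represented by its brightest probe set.

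The 4 group means were fitted together with limma 3.58.1 (lmFit and eBayes) in R 4.3.3, with Benjamini-Hochberg adjustment over all genes and a threshold of 0.05. Intervals are 95% intervals. The fit was tested on simulated data. Alternatives were quantile normalization, median scaling, a pseudocount of 1 without a floor, a filter on dim genes, an intensity trend, a replicate block, only the groups compared, the median of all probe sets of a gene, leaving out each array in turn and, chosen after seeing the data, a trimmed mean scaling. The number of arrays limits the precision.

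Values on every array are given for the 4 largest rises and falls past the threshold at each time and for Eif4a1, Eif4e, Eif4ebp1, Eif4ebp2, Eif2s2 and Eif2s3x. Other members are named for a subgroup or a disagreement. The members and lists were chosen with earlier results of these data known. Promoters came from RefSeq and were matched by symbol.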

Additional observations from a re-analysis of the deposited data

Results flagged for a closer look

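Listed here are the steps between consecutive time points that passed the limma test for single initiation factors both as deposited and after quantile normalization, in log2 units as deposited. Between 3 h and 1 h after ConA this was Eif1a, higher by 0.75 at 3 h. At 6 h against 3 h it held for 16 genes, of which 4 (Eif2b4, Eif3d, Eif4e3 and Eif6) were also called with every array set to the same median. Under that scaling the steps were smaller, such as 0.071 for Eif3e, 0.050 for Eif4h and 0.0996 for Eif3c. The largest was Eif4e3, higher by 2.09, before Eif6 by 1.09, Eif2b4 by 1.05 and Eif3d by 1.01. Eif2a, which did not differ from 0 h by the test at either time, was higher by 0.84, and Eif4ebp1, low at 3 h as deposited, by 0.70. Of the eIF3 genes, Eif3a differed by 0.73, Eif3b by 0.63, Eif3m by 0.60, Eif3f by 0.56, Eif3c by 0.48 and Eif3e by 0.45. Eif2s2 and Eif5b were each higher by 0.64, Eif4a1 by 0.63 and Eif4h by 0.43. No explanation of these steps was tested.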

How the results depend on the processing

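Over the alternatives, the rises called at 6 h kept their direction apart from that of Eif4g2. The counts at 3 h and between time points varied most. After quantile normalization the counts that changed by over 1.5 times were 1 lower at 3 h and 1 lower at 6 h (9.06% and 17.7% of all genes). The others were 2 higher and 0 lower at 3 h against 1 h (5.52% and 5.41%), and 16 higher at 6 h against 3 h (9.35%). With median scaling they were 0 higher at 1 h, 0 lower at 3 h, 9 higher and 1 lower at 6 h, 2 higher and 0 lower at 3 h against 1 h, 4 higher at 6 h against 3 h, and 8 past the F test. With the trimmed mean, chosen after seeing the data, they were 1 lower at 3 h, 2 lower at 6 h, 2 higher and 0 lower at 3 h against 1 h, 12 higher at 6 h against 3 h and 18 past the F test. The share of all genes past the F test was not counted under median or trimmed mean scaling. Under the trimmed mean 10.8% of all genes were higher at 6 h against 3 h, and no share is given for its other counts here. The counts that follow, also those with the replicate block, have no share of all genes beside them and cannot be set against one. With log2(value + 1) 5 were lower at 3 h against 1 h. Among brighter genes 1 was lower at 6 h and 2 higher at 3 h against 1 h, and the intensity trend also gave 2. Fitting only the groups compared gave 0 higher at 1 h and 3 lower at 3 h against 1 h. The median of all probe sets gave 0 higher at 1 h, 1 higher at 3 h, 1 lower at 6 h and 1 lower at 6 h against 3 h, and it turned the 6 h change of Eif4g2 to -0.0353 (adjusted p = 0.931). The 6 h calls of Eif4e, Eif3d, Eif3m, Eif2b2 and Eif1ad were lost with it. Their changes were then 0.09, 0.56, 0.21, 0.77 and 0.10 (limma, adjusted p of 0.825, 0.469, 0.574, 0.0636 and 0.751). The cause of these differences was not tested. The median for Eif3d includes a probe set that was at the floor on 6 of 12 arrays. Leaving out 1 array gave 0 to 1 higher at 1 h, 2 to 2 higher and 0 to 6 lower at 3 h, 14 to 19 higher and 0 to 0 lower at 6 h, 1 to 2 higher and 3 to 13 lower at 3 h against 1 h, 20 to 30 higher at 6 h against 3 h, and 19 to 30 past the F test.

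With the replicate block, 0 genes were higher at 1 h and 1 was lower at 6 h, and other counts stayed within 1.5 times. The call of Eif3b at 6 h was also lost with it (limma, adjusted p = 0.0504). The labels do not say whether the replicate numbers pair the arrays, and the main fit did not use them. The residuals of 18 same-numbered pairs correlated at -0.0054 to 0.041, against -0.055 to 0.034 for 36 other pairs. These correlations were small, but 10 of 12 arrays correlated best with their own number, and the reason was not tested. Where a signal lay at the floor, as for Eif4a3 on 11 of 12 arrays, a further fall could not show, though a rise could. For Eif5a2, at the floor on 3 arrays, the standard error at 6 h was 0.78 on the log2 scale.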
